A study of Aspergillus niger with 8 samples.

Results

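The comparison described here sets mycelium of Aspergillus niger N402, a laboratory strain of a filamentous fungus, after 6 h without carbon against mycelium grown for 48 h on glucose. Its members were chosen by sample title: 2 cultures of 6 h starvation and 2 of 48 h glucose, lettered A and B, make up 4 of the 8 libraries of the series, and all 15431 gene rows of the count files were kept. Every culture began as spores of N402 in shaken flasks of minimal medium with glucose as the only carbon source. For starvation, the 48 h mycelium was filtered, washed in medium without carbon and placed in fresh carbon-free medium, with no other allele or agent in either group. The starved cultures therefore differ from the glucose cultures in washing, fresh medium and 6 h of added age as well as in carbon, and these cannot be told apart here. The other 4 libraries, from 24 h of starvation and from 6 h on milled wheat straw, entered the same fit and are quoted where they show how the 6 h pattern differs.

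A saprophytic fungus on glucose keeps the genes for other carbon sources shut through carbon catabolite repression, in which the zinc finger protein CreA is the best known repressor. When glucose runs out this repression is lifted, fat and amino acids can be burned through beta-oxidation and the glyoxylate bypass, and low amounts of enzymes that cut plant polysaccharides are released, often called scouting enzymes because the sugars they free can report a substrate. Prolonged starvation is known for autolysis, the breakdown of the fungus's own wall, and for spore formation.

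RNA depleted of rRNA was sequenced, and reads were counted per gene model. The glucose libraries held 635522 and 758523 reads on genes, which were 2.97% and 2.99% of all reads, and the 6 h starvation libraries held 471700 and 358403, or 1.47% and 1.79%. Because the starved libraries had the smaller share, all values were scaled to reads on genes. A level below is a read count divided by the length of the gene model and scaled as RPKM is, but to the reads on genes rather than to all reads, and it is always given for glucose A, glucose B, starvation A and starvation B in that order. In such bulk RNA, fewer active cells and less RNA per cell cannot be told apart. Reads without a unique alignment made up 58.4% and 68.3% of all reads on glucose and 71.7% and 69.4% under starvation. Their part in the smaller share of reads on genes was not tested. A gene was called when edgeR's quasi-likelihood test gave a Benjamini-Hochberg adjusted p below 0.05 and the fitted change was at least 3-fold. Scaling to all reads of the library instead moved the median log2 fold change of all tested genes from 0 to −1.04, and each change is therefore stated relative to the typical gene.

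Genes that mark mycelium and no other stage were not among the lists, so the labelled tissue was checked only through spore and conidiophore genes and a housekeeping gene. The level of actA, the actin gene, was 282 and 305 on glucose and 471 and 305 under starvation, and the difference was not called (log2 0.51 with a standard error of 0.40, and an adjusted p of 0.356 by edgeR's quasi-likelihood test; values after ± below are such standard errors). Of 6 markers of conidiophores and conidia, 5 could be tested and 1 was called higher, against 15.0% of all tested genes. The summed level of the 6 was 26.4 and 27.7 on glucose and 64.3 and 36.8 under starvation. The brlA-like An01g10540, a regulator of conidiophore formation, had 1 and 3 reads on glucose and 8 and 1 under starvation, and the spore pigment oxidase brnA had 1, 1, 0 and 0. The called marker was mcoB, a laccase-like multicopper oxidase, at levels of 7.03, 4.42, 27.2 and 21.8 (log2 2.20 ± 0.60, adjusted p = 0.00803). That call was lost without glucose culture B (log2 1.91, adjusted p = 0.0755) and without starvation culture A (log2 1.99, adjusted p = 0.0514). On a wider list of 10 conidiation genes that holds these 6, 8 could be tested and 3 were called higher: mcoB, the Myb-like gene An01g04830 (log2 3.72) and An02g03160 (log2 2.13). Scaled to all reads, 1 of the 3 was called. The part of conidiophore RNA in the results that follow was not tested.

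Of 6357 genes tested, 951 were called higher and 736 lower after 6 h of starvation. That is 15.0% and 11.6% of the genes tested and 26.5% in both directions. Counts of called list members below are to be read beside these shares. The changes were large. The median log2 fold change was 3.02 among genes called higher and −2.91 among those called lower, and 124 and 58 genes passed 64-fold in these directions. Both starved cultures lay above both glucose cultures for 940 of the 951, and below both for all 736. Such separation alone was common, since 31.5% of all tested genes had both starved cultures above and 36.4% had both below. The genes called higher took 3.70% and 3.96% of the reads on genes on glucose and 33.7% and 34.2% under starvation, and the genes called lower took 27.0% and 27.8% on glucose and 2.24% and 2.89% under starvation. Scaled to all reads of the library, 504 genes were called higher and 1963 lower, and with the fold taken as the ratio of mean deposited RPKM, which also counts all reads, 595 and 951 were called. The balance between the directions therefore depends on the scaling.

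**Figure D1:**
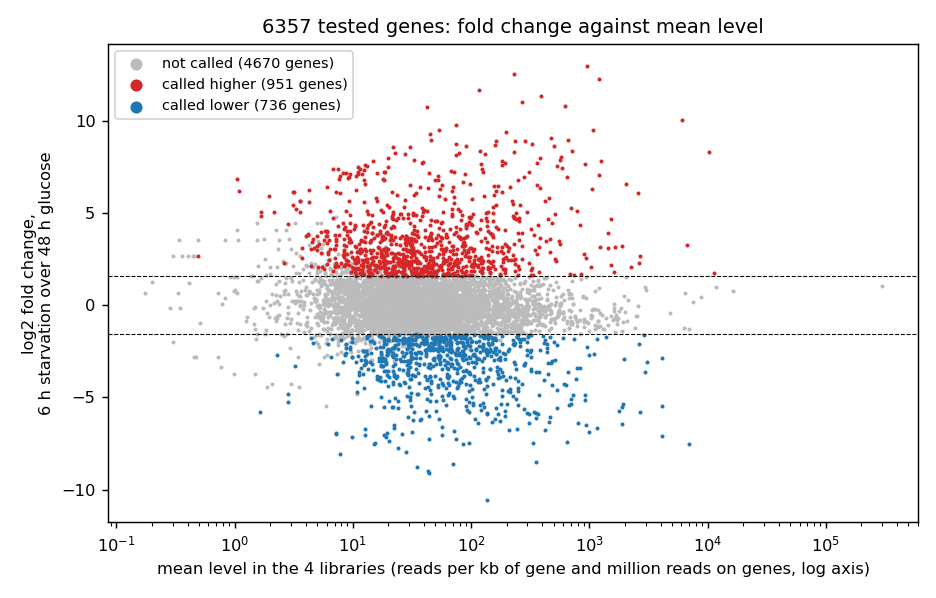
The log2 fold change of 6 h starvation over 48 h glucose (vertical) is plotted for each tested gene against its mean level in the 4 libraries (horizontal, log axis), with red for the 951 genes called higher, blue for the 736 called lower, grey for the rest and dashed lines at 3-fold. Genes with no read in these 4 libraries are not drawn, and called genes in both directions are found from low to high levels.

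Genes for the side chains of pectin showed some of the largest rises. Pectin is a plant polysaccharide whose rhamnogalacturonan backbone carries chains of arabinose and galactose. Of 35 pectin-acting genes in the study's enzyme table, 22 could be tested, 19 were called higher and 0 lower, with a median log2 fold change of 4.72 (4.55 with unread genes at their bound) against 0 over all tested genes. The study chose the table partly by transcript levels in these libraries, so this count is not independent evidence of the direction. By the activity in their description, 5 of 6 tested genes for arabinan or arabinose release and 4 of 5 for galactose release were called higher.

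The endo-arabinanase gene abnA, whose product cuts within arabinan chains, had 0 and 1 reads on glucose and 1806 and 1771 under starvation. Its levels were 0, 0.727, 2111 and 2724, and the ratio of pooled counts scaled to reads on genes was 6007 (95% exact counting interval 1077 to 237333). edgeR's quasi-likelihood test gave an adjusted p of 3.03e-08. The second endo-arabinanase gene, abnC, stood at 5.37, 4.50, 1352 and 882 (log2 7.88 ± 0.58, adjusted p = 4.81e-08). For either gene both starved cultures stood far above both glucose cultures. The arabinofuranosidase genes, whose products clip single arabinose residues, did not all follow. For abfB the levels were 2.67, 0.960, 275 and 229 (log2 7.21 ± 0.63, adjusted p = 1.31e-07), whereas abfA was not called (log2 0.08).

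Galactose-releasing genes rose with them. The beta-galactosidase gene lacA was at 7.0, 9.21, 619 and 798 (log2 6.52 ± 0.65, adjusted p = 5.13e-07), and lacC was at 2.16, 4.07, 115 and 167 (log2 5.52 ± 0.50, adjusted p = 1.82e-07). lacB rose by 4.41 on the log2 scale and galA, for an endo-galactanase, by 4.61, while lacE was not called at −1.67. The backbone was represented as well. An14g01130, described as rhamnogalacturonan-degrading and of lyase family PL4, stood at 0, 1.66, 451 and 489, a pooled ratio of 517 (95% exact counting interval 143 to 4281). The exo-polygalacturonase gene pgxB had no read on glucose and 82 and 78 reads under starvation, at least 89.6-fold higher against 3 counts over the glucose group (adjusted p = 3.52e-07). For all these genes but abfA and lacE both starved cultures lay far above both glucose cultures. The glucose cultures of lacB (3.61 and 13.0) differed from each other more than its starved cultures did (136 and 207).

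Cellulose genes were called higher in more than 1 enzyme class. Of 18 genes that the study lists, 14 could be tested, 9 were called higher and 0 lower (median log2 3.81, or 3.40 with unread genes at their bound), again on a list drawn partly from these libraries. By description, 7 of 8 tested beta-glucosidase genes, whose products split the disaccharide cellobiose and other short glucosides, were called higher, and 1 of 4 cellobiohydrolase genes, whose products work along the cellulose fibre, a difference that was not tested. The beta-glucosidase gene bgl1 was at 27.4, 28.1, 2243 and 1899 (log2 6.32 ± 0.58, adjusted p = 1.99e-07). The called cellobiohydrolase gene was cbhB, at 13.4, 6.40, 2935 and 690 (log2 7.65 ± 0.95, adjusted p = 4.98e-06), where the starved cultures differed from each other by more than the glucose cultures did but stayed far above them. The other cellobiohydrolase genes cbhA (log2 −1.50), An08g01760 (0.39) and An12g02220 (0.38) were not called, though cbhA was called lower without glucose culture A (log2 −1.87, adjusted p = 0.0221) and without starvation culture B (log2 −2.18, adjusted p = 0.0146). Among endoglucanases, An01g11670 rose by 3.66 on the log2 scale and eglA was at 0.79 without a call.

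Xylan genes showed less. Of 12 listed genes, 11 could be tested, with a median log2 of 1.22. Of these 4 were called higher and 0 lower, against 15.0% and 11.6% of all tested genes. The count fell to 1 without glucose culture A, to 2 without starvation culture A, and to 0 when scaled to all reads of the library. The main endoxylanase gene xynA was at 10.6, 21.6, 40.8 and 16.1 with overlapping groups (log2 0.93 ± 0.61, adjusted p = 0.254). The xyloglucan-acting endoglucanase gene eglB was at 20.9, 11.3, 19.9 and 13.1 and also overlapped. xlnR, for the activator of xylanase and cellulase genes, was nevertheless called higher at 6.59, 12.5, 137 and 130 (log2 3.86 ± 0.44, adjusted p = 2.27e-06). Over 38 polysaccharide-degrading genes that carry a RefSeq symbol, a list not built on these values, 25 could be tested, 10 were called higher and 1 lower (median log2 1.22). Its lower count was 0 without glucose culture B and 2 without glucose culture A or without starvation culture B.

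**Figure D2:**
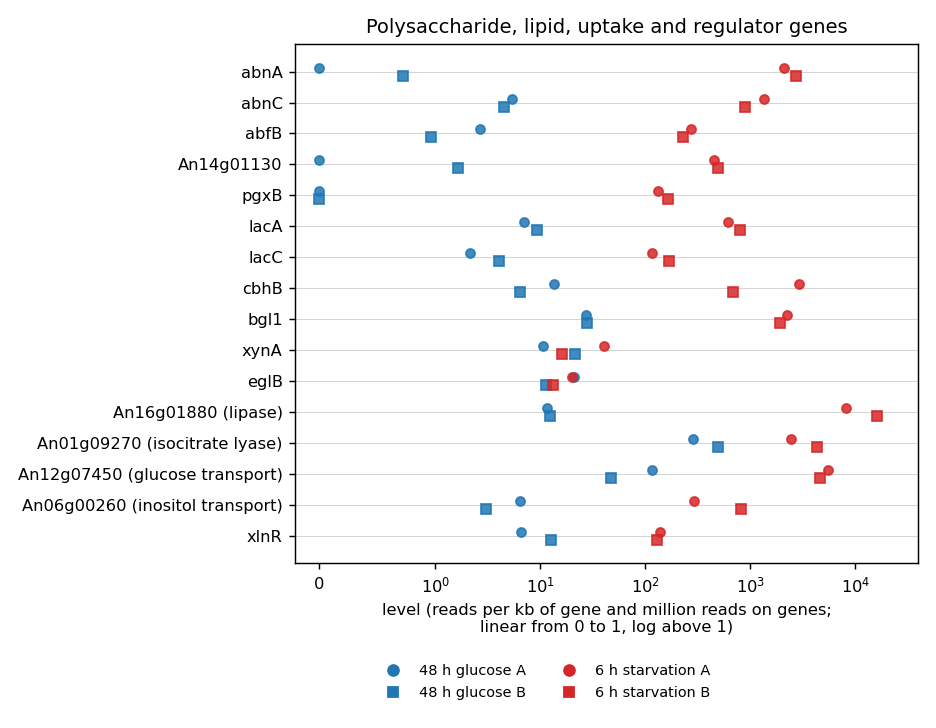
Each row is a gene and each point 1 library, with the level (RPKM scaled to reads on genes) on the horizontal axis (linear from 0 to 1, log above), glucose in blue and 6 h starvation in red, circles for culture A and squares for B. The groups are well apart in 14 of the 16 rows, and xynA and eglB are the 2 rows in which they overlap.

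Several genes of fat breakdown were called higher. An16g01880, annotated with triglyceride lipase activity, went from levels of 11.5 and 12.4 on glucose to 8174 and 16010 under starvation (log2 10.03 ± 0.89, adjusted p = 1.45e-07), and alone took 0.782% and 1.53% of the reads on genes in the starved libraries. Of 24 genes that the study grouped under fatty acid metabolism from its straw-raised set, all could be tested, 17 were called higher and 0 lower (median log2 2.13). This list was drawn from genes raised on straw over the same glucose cultures, so it is not independent, and 9 were called when scaled to all reads. On a short list of genes described for beta-oxidation and not chosen on values, 1 of 3 tested was called higher, An01g12960 (log2 2.20), and the median log2 was 1.09. That count was 2 without starvation culture A and 0 when scaled to all reads. An14g00990, with enoyl-CoA hydratase and 3-hydroxyacyl-CoA dehydrogenase activity, the middle steps of beta-oxidation, stood at 15.3, 21.8, 346 and 810 (log2 5.03 ± 0.51, adjusted p = 5.89e-07). All 3 genes of the glycerolipid list, drawn from genes higher in this comparison and so fixed in direction, were called, An18g03170 at 39.4, 52.8, 316 and 426 among them.

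Acetyl units made in this way enter the glyoxylate bypass, which spares their carbon from loss as CO2. The isocitrate lyase gene An01g09270, the entry of the bypass, was at 283, 489, 2466 and 4300 (log2 3.21 ± 0.56, adjusted p = 0.000203). An15g01860, with a glyoxylate metabolic term, was at 32.8, 111, 158 and 168 (log2 1.25 ± 0.47, adjusted p = 0.0457), which was under the fold threshold, and without glucose culture B it was called (log2 2.42, adjusted p = 0.0032). An04g05620, annotated as an acetate-CoA ligase, was at 216, 356, 1908 and 1300 (log2 2.58 ± 0.53, adjusted p = 0.000912), and An18g01590, for a carnitine acetyltransferase that carries acetyl units between compartments, rose by 2.95. The aldehyde dehydrogenase gene aldA rose by 2.80.

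Genes for the citrate cycle and the pentose phosphate pathway moved in both directions. Of 11 genes listed for citrate, glyoxylate and pentose phosphate enzymes, a list not chosen on values, all were tested. Of these 4 were called higher and 4 lower, against 15.0% and 11.6% of all tested genes. The citrate synthase gene citA was at 278, 432, 85.4 and 30.5 (log2 −2.49 ± 0.48, adjusted p = 0.000534), and the isocitrate dehydrogenase gene icdA at 397, 402, 89.6 and 125 (log2 −1.81 ± 0.46, adjusted p = 0.00517). The glucose 6-phosphate dehydrogenase gene gsdA was at 803, 558, 139 and 200 (log2 −1.91 ± 0.43, adjusted p = 0.00206), and the next enzyme of that pathway, the 6-phosphogluconolactonase An01g05150, fell by 1.68 on the log2 scale, with the call lost without starvation culture A (log2 −1.33, adjusted p = 0.0803). A second gene described as a citrate synthase, An01g09940, had a log2 of 0.36 and was not called. For citA, icdA and gsdA both starved cultures lay under both glucose cultures.

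Glycolysis held no call. Of 10 tested genes for glycolysis and fermentation 0 were called in either direction by edgeR's quasi-likelihood test, 3 had an unadjusted p under 0.05, all of them higher, and DESeq2 also called 0 (median log2 −0.24). The pyruvate kinase gene pkiA was at 304, 262, 211 and 203 (log2 −0.35 ± 0.38, adjusted p = 0.498), and adhA, an alcohol dehydrogenase gene, was at 5250, 5179, 9611 and 5585 (log2 0.65 ± 0.59, adjusted p = 0.422). The glyceraldehyde 3-phosphate dehydrogenase gene gpdA was at 546, 1005, 632 and 211 and overlapped between groups. Without starvation culture A, 2 members were called lower: gpdA (log2 −1.82, adjusted p = 0.019) and the pyruvate dehydrogenase gene An01g00100 (log2 −2.94, adjusted p = 0.0309). Scaled to all reads, 3 members were lower. An11g02550, which carries a glycolysis term but is counted with the citrate and glyoxylate genes here, was called higher at 12.5, 8.50, 322 and 195 (log2 4.73 ± 0.49, adjusted p = 7.16e-07).

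Starch-degrading genes, the glucose-releasing set that dominates secretion by this fungus, stayed among the most read. glaA, the glucoamylase gene, took 3.87% and 4.77% of reads on genes on glucose, the largest share of any gene there, and 1.71% and 1.74% under starvation. Its levels of 8058, 9945, 3565 and 3620 did not overlap, but the change was not called (log2 −1.23 ± 0.52, adjusted p = 0.0738). aglU, an alpha-glucosidase gene, had a log2 of −0.68 and amyR, for the activator of starch genes, one of 0.12. agdB, a further alpha-glucosidase gene, was called higher at 288, 250, 2840 and 1546 (log2 3.13 ± 0.54, adjusted p = 0.000182). On scaling to all reads, 3 of the 4 tested starch genes were called lower, glaA at −2.20 and aglU at −1.67 included.

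Some sugar and alcohol uptake genes were called higher. On a list of transporters described as substrate-specific and not chosen on values, 2 of 5 tested were called higher, against 15.0% of all tested genes. These were An01g08780 (log2 3.49) and the xylose permease An01g00850. The other 3 were not called, and the median log2 was 0.83. An12g07450, with a glucose transporter term and named here after its values were seen because it was the sixth most read gene of the starved libraries, was at 116, 47.6, 5560 and 4573 (log2 6.07 ± 0.68, adjusted p = 1.87e-06). An06g00260, annotated for transport of the sugar alcohol myo-inositol, was at 6.46, 3.01, 294 and 823 (log2 6.96 ± 0.79, adjusted p = 2.04e-06). The xylose permease An01g00850 was at 50.1, 16.8, 423 and 500 (log2 3.90 ± 0.80, adjusted p = 0.000889). In each of these 3 genes the lower starved culture lay well above the higher glucose culture. An07g02540, listed for monocarboxylic acid transport, stood at 3.26, 3.64, 506 and 918 (log2 7.70 ± 0.65, adjusted p = 1.14e-07). The 4 genes of the organic alcohol list and the 5 of the monocarboxylic acid list were all called higher, but both lists were drawn from genes raised in this comparison.

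Genes for enzymes that make or break down hydrogen peroxide or pass electrons to oxygen moved in both directions. Those given here were named by size or by annotation. On a list of 5 catalases and peroxidases not chosen on values, 2 could be tested. Of these 1 was called higher and 0 lower, against 15.0% and 11.6% of all tested genes. The other tested member, the catalase An01g01550, was not called (log2 1.53). An18g05480, an alcohol oxidase of family AA3, was at 4.50, 4.52, 1874 and 956 (log2 8.36 ± 0.75, adjusted p = 1.82e-07). The gene listed as Sox was at 2.67, 3.36, 919 and 613 (log2 7.99 ± 0.65, adjusted p = 8.00e-08), and the catalase-peroxidase gene An01g01830, whose product breaks down hydrogen peroxide, at 31.8, 42.1, 1664 and 1055 (log2 5.30 ± 0.50, adjusted p = 3.00e-07). All 3 had both starved cultures far above both glucose cultures. In contrast aox1, for the alternative oxidase that passes electrons to oxygen outside the cytochrome chain, fell from 819 and 1492 to 64.2 and 44.9 (log2 −4.30 ± 0.55, adjusted p = 7.76e-06). Of 10 tested genes of the respiratory chain and ATP synthase 1 was higher, the succinate dehydrogenase gene An01g13930 (log2 4.55), and 1 lower, the ATP synthase gene An01g10880 (log2 −2.03). Neither count exceeds the shares over all tested genes, 15.0% higher and 11.6% lower.

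A small part of the called genes stood in runs of neighbours. When the 14112 genes with an identifier were put in the order of those identifiers, 13 runs of at least 4 neighbours called in the same direction were found, 8 higher and 5 lower. They held 60 genes in all, against 1687 called genes, or 26.5% of those tested. How many runs a random order would give was not tested. The 3 longest had 6 genes each. In A. niger, genes for 1 secondary metabolite often lie side by side, and these 3 runs are shown because they are the longest.

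The run from An11g07300 to An11g07350 held the largest fitted log2 fold change of all tested genes, 12.99 for An11g07320. That rank is uncertain, since a gene unread on glucose has only a lower bound. An11g07320, under the study's secondary metabolism term, had no read on glucose and 1178 and 403 under starvation, at least 885-fold higher against 3 counts over the glucose group (adjusted p = 8.95e-08). An11g07310, with a fatty acid biosynthesis term, had 0, 0, 1074 and 138 reads, at least 678-fold higher (adjusted p = 1.09e-06), and An11g07340 had 0, 0, 248 and 234, at least 270-fold higher. An11g07330 had 1, 0, 1001 and 399. The starved cultures were not alike here, since the level of An11g07310 was 796 in culture A and 135 in culture B, and only An11g07340 was higher in culture B (701 and 871). On one side An11g07290 had 62, 55, 47 and 26 reads and was not called. On the other An11g07360 had 0, 0, 4 and 2 reads, too few to be tested, and An11g07370 had none.

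The run from An09g00520 to An09g00570 was all but silent on glucose. An09g00520 had 0, 0, 165 and 156 reads, at least 180-fold higher (adjusted p = 1.12e-07), and An09g00530 had 0, 1, 85 and 202. An09g00550, with a drug transport term, had 0, 0, 21 and 47, and An09g00570 had 2, 8, 149 and 497. In this run starved culture B mostly had the larger counts. The rise did not end with the run, since An09g00590, separated from it by 1 gene with few reads, had 1, 2, 100 and 260 and was called higher as well.

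The run from An03g00640 to An03g00690 fell by 5.80 to 6.71 on the log2 scale. An03g00660 had 1693 and 5241 reads on glucose and 22 and 21 under starvation, and An03g00650, a secondary metabolism gene by the study's term, had 185, 539, 0 and 5. The genes on either side had few or no reads or were not called (An03g00630 had none, An03g00720 had 40, 42, 12 and 14). A run of 5 lower genes, An03g03520 to An03g03560, paired a secondary metabolism gene (An03g03520, log2 −3.49) with the iron starvation gene An03g03560 (log2 −4.32). The study's secondary metabolism lists were drawn from genes raised here (12 of 12 higher) and from genes lowered on straw (7 of 7 tested lower), so the directions are fixed or shared. The synthase-like gene An02g00840, similar to nonribosomal peptide synthases and outside those lists, was at 21.3, 15.8, 135 and 401 (log2 3.93 ± 0.50, adjusted p = 7.50e-06).

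**Figure D3:**
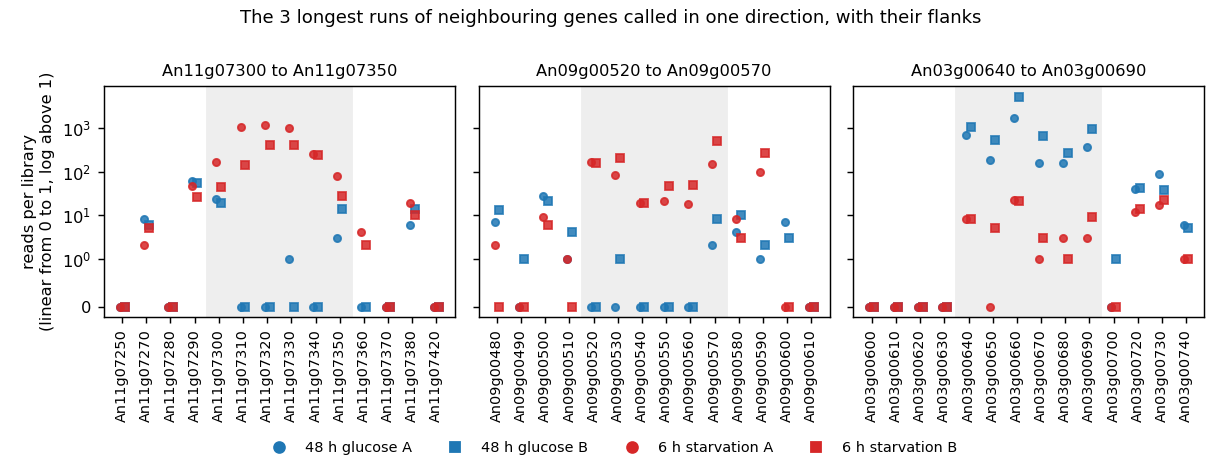
Reads per library (vertical, linear from 0 to 1 and log above) are shown for the 3 runs of 6 neighbouring genes (grey band) and their flanking genes in identifier order, with glucose in blue, 6 h starvation in red, circles for culture A and squares for B. The first 2 runs are higher under starvation and the third lower, and An09g00590, outside its band, is higher too.

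Some nitrate, ammonium and amino acid synthesis genes fell. On a list of 14 described amino acid synthesis enzymes not chosen on values, 7 could be tested (median log2 −1.02). Of these 2 were called lower, 1 higher and 4 in neither direction, against 11.6% lower and 15.0% higher of all tested genes. The lower count was 1 without glucose culture A or starvation culture A, and 4 when scaled to all reads. The nitrate reductase gene niaD, first enzyme of nitrate assimilation, was at 723, 438, 8.61 and 10.3 (log2 −5.83 ± 0.50, adjusted p = 1.15e-07). gdhA, for the glutamate dehydrogenase that fixes ammonium, was at 891, 1146, 40.4 and 37.8 (log2 −4.60 ± 0.44, adjusted p = 2.91e-07). These are falls of 57.0-fold and 24.3-fold, and neither gene's groups overlapped. The glutamine synthetase An01g08800 overlapped between the groups at 1092, 419, 411 and 745 and was not called (log2 −0.29), nor was the leucine synthesis gene leu2B (log2 0.58).

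Of 9 amino acid synthesis genes that the study grouped from its straw-lowered set, 8 were called lower (median log2 −3.13), on a list that shares the glucose cultures and is not independent. The ninth, An08g02700, had a log2 of 1.07 and was called higher without starvation culture B (log2 1.59, adjusted p = 0.0083). An03g04520, a dihydroxy-acid dehydratase of branched-chain amino acid synthesis, had 50, 47, 1 and 0 reads, a pooled ratio of glucose over starvation of 57.8 (95% exact counting interval 10.1 to 2305). The leucine synthesis gene leu2A was at 238, 151, 13.7 and 22.5 (log2 −3.34 ± 0.50, adjusted p = 4.36e-05). An04g06380, an aspartate aminotransferase, was at 866, 836, 83.4 and 98.8 (log2 −3.13 ± 0.40, adjusted p = 7.79e-06). The opposite pathway rose: An09g02700, an alpha-ketoacid dehydrogenase for branched-chain amino acid breakdown, was at 0, 3.95, 102 and 136 (log2 5.77 ± 0.65, adjusted p = 1.78e-06), 1 of 4 breakdown genes, all higher, on a list drawn from this comparison. An01g06150, which carries the description of the first enzyme of aromatic amino acid synthesis, was an exception to the fall of synthesis genes, with 1, 2, 62 and 71 reads (pooled ratio 74.5, 95% exact counting interval 24.9 to 366).

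Some transporters of amino acids fell as well. Of 7 on a list not chosen on values, only 2 could be tested. Of these 2 were called lower, An01g09730 among them, against 11.6% of all tested genes. An02g09540 and An03g00430 are outside that list. An02g09540 and An03g00430, both annotated for transport of amino acids and gamma-aminobutyric acid, had 252, 236, 1 and 2 reads and 115, 95, 1 and 1 reads. Their pooled ratios of glucose over starvation were 96.9 (95% exact counting interval 32.9 to 471) and 62.5 (17.1 to 520). An01g09730, with a predicted amino acid transporter domain, was at 169, 67.9, 6.34 and 8.35 (log2 −3.89 ± 0.55, adjusted p = 2.16e-05). The asparaginase An01g14960 had 107, 23, 1 and 0 reads, and its call (log2 −6.0, adjusted p = 0.00186) was lost without glucose culture A (log2 −4.40, adjusted p = 0.0682) and in DESeq2 (adjusted p = 0.0732).

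The 4 genes of the study's iron starvation response, drawn from its straw-lowered set, were all called lower (median log2 −5.06). An05g00220 was at 271, 267, 3.71 and 4.88 (log2 −5.85 ± 0.51, adjusted p = 1.31e-07), and An07g06240 at 898, 430, 16 and 4.86 (log2 −5.80 ± 0.57, adjusted p = 4.30e-07). An02g14190 changed least, at 298, 206, 65.0 and 71.8 (log2 −1.78 ± 0.39, adjusted p = 0.00143), and fell just under the fold threshold without glucose culture A (log2 −1.58, adjusted p = 0.0167). 2 adjoining genes outside that list also fell: the multicopper oxidase An01g08960 had 65, 152, 1 and 1 reads, and the membrane transport gene An01g08950 was at 1153, 944, 24.6 and 14.7 (log2 −5.59 ± 0.51, adjusted p = 1.96e-07).

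Among sterol synthesis genes, 2 of 4 tested were lower, on a list not chosen on values, against 11.6% of all tested genes. The C14 sterol reductase An01g07000 was at 359, 298, 14.3 and 28.2 (log2 −3.88 ± 0.45, adjusted p = 2.71e-06) and the C8 isomerase An01g03350 at 99.5, 84.9, 2.48 and 9.80 (log2 −3.85 ± 0.71, adjusted p = 0.000314). The 2 other tested members had log2 values of −0.88 and −0.22 and were not called. Among the deepest falls of genes with an annotation were those of An01g02640, with a methyltransferase domain, which had 197 and 324 reads on glucose and none under starvation (at least 103-fold lower against 3 counts over the starved group), and of the oxidoreductase An01g09550, at 1236, 1315, 3.37 and 11.1 (log2 −7.42 ± 0.58, adjusted p = 5.73e-08).

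More protease genes were called lower than higher. Of 14 tested, 5 were called lower and 1 higher (median log2 −0.69), against 11.6% lower and 15.0% higher of all tested genes. The sedolisin An01g01750, a secreted acid protease, was at 380, 418, 7.89 and 22.1 (log2 −4.68 ± 0.55, adjusted p = 2.83e-06), the pepsin family gene An01g00370 at 500, 338, 56.5 and 32.4 (log2 −3.11 ± 0.46, adjusted p = 3.41e-05), and the gene EPR at 793, 927, 101 and 98.9 (log2 −3.01 ± 0.45, adjusted p = 3.55e-05). pepF had 60, 85, 0 and 5 reads and fell by 3.92. The call of proctase-A rested on single libraries: its levels were 247, 298, 3.13 and 102 (log2 −2.34, adjusted p = 0.0258), and the call was lost without starvation culture A (log2 −1.35, adjusted p = 0.0834), without glucose culture B (log2 −2.18, adjusted p = 0.0709) and in DESeq2 (adjusted p = 0.239). The rise was of pepA, the acid aspergillopepsin gene, at 7.76, 13.0, 56.8 and 47.2 (log2 2.39 ± 0.55, adjusted p = 0.00228), a call that was lost when scaled to all reads (log2 1.41, adjusted p = 0.0742). Without starvation culture B a second member, the aminopeptidase gene apsA, was also called higher (log2 1.86; 1.49 with all libraries). PrtT, for the protease activator, was at 99.4, 138, 97.0 and 102 and was not called.

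**Figure D4:**
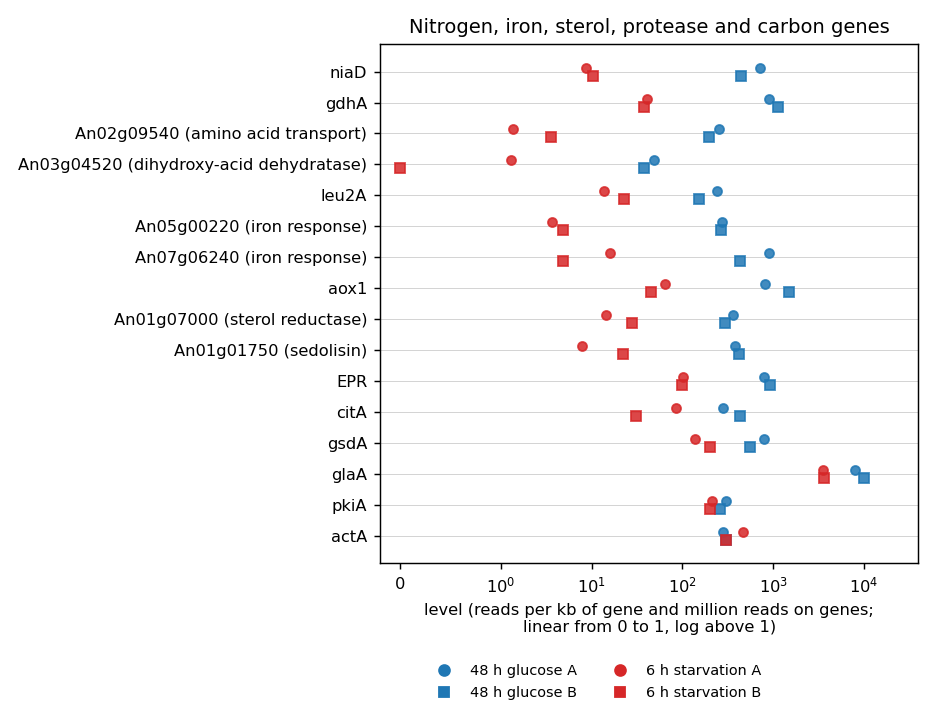
Each row is a gene and each point 1 library, with the level (RPKM scaled to reads on genes) on the horizontal axis (linear from 0 to 1, log above), glucose in blue and 6 h starvation in red, circles for culture A and squares for B. In the upper 13 rows starved cultures lie to the left of glucose cultures, while the glaA and pkiA groups lie closer together and the actA groups overlap or adjoin.

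Enzymes that act on the fungus's own wall were raised in part. Of 11 alpha-mannan genes in the study's enzyme table, which was chosen partly on these libraries, 9 could be tested (median log2 3.42). Of these 6 were called higher and 0 lower, against 15.0% and 11.6% of all tested genes. An16g02910, an alpha-mannosidase of family GH92, was at 7.42, 7.92, 243 and 396 (log2 5.45 ± 0.48, adjusted p = 1.38e-07), and the alpha-1,6-mannanase An07g07700 at 46.5, 38.3, 489 and 438 (log2 3.55 ± 0.41, adjusted p = 2.68e-06). Of 7 tested chitin genes 3 were called higher and 0 lower. Among these were cfcD, a chitinase gene at 9.11, 9.15, 187 and 155 (log2 4.28 ± 0.49, adjusted p = 2.28e-06), and An01g02730, a chitin-binding gene with 0, 0, 13 and 8 reads. chiB, the autolytic chitinase gene, was at 32.7, 36.5, 31.0 and 27.9 and was not called (log2 −0.13 ± 0.46, adjusted p = 0.845).

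For the fungus's own glucans 6 of 15 tested genes were called higher and 0 lower. exgA, an exo-beta-1,3-glucanase gene, was at 6.34, 10.6, 358 and 180 (log2 5.05 ± 0.66, adjusted p = 8.90e-06), and agsD, for an alpha-1,3-glucan synthase that builds rather than cuts, at 4.86, 3.69, 43.0 and 17.2 (log2 2.94 ± 0.51, adjusted p = 0.000191). The glucan count halved to 3 without starvation culture A, with 1 called lower, and was 3 when scaled to all reads. engA, an endo-beta-1,3-glucanase gene, was among the calls lost (log2 1.74, adjusted p = 0.00717; without starvation culture A log2 1.12, adjusted p = 0.175; without glucose culture A log2 1.35, adjusted p = 0.111). The wall enzyme tables were chosen partly on these libraries, and their counts are not independent evidence. Over the pectin, cellulose, xylan, mannan, chitin and glucan genes together, 0 were called lower by edgeR's quasi-likelihood test and by DESeq2, and 1, cbhA, had an unadjusted p under 0.05 in that direction.

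Genes for making and exporting proteins were near the typical gene. Of 11 tested ribosomal protein genes 0 were called by edgeR's quasi-likelihood test, 2 had an unadjusted p under 0.05, both lower, and DESeq2 called 0 (median log2 −0.26). Without starvation culture B, 3 of them were called lower, and 4 were when scaled to all reads. Of 13 tested secretory pathway genes 1 was called lower, the Sec61 subunit An01g11630 (log2 −2.15), and the median was 0.21. Of 4 tested genes described for autophagy, the recycling of cell contents in the vacuole, 0 were called by edgeR's quasi-likelihood test, 3 had an unadjusted p under 0.05 (2 higher, 1 lower), and DESeq2 called 1, lower. That gene, An01g13390, was at 107, 119, 36.6 and 34.4 (log2 −1.57, adjusted p = 0.0104), just under the fold threshold, and was called without glucose culture A (log2 −1.72, adjusted p = 0.0247) and without starvation culture A (log2 −1.65, adjusted p = 0.0444). The sorting nexin An02g01390 (log2 1.48, adjusted p = 0.0178) was called higher without glucose culture B (log2 1.82, adjusted p = 0.0414).

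Of 10 tested regulator genes, 2 were called higher, against 15.0% of all tested genes. These were xlnR, given above, and pacC, for the regulator of the response to alkaline pH, at 27.5, 24.3, 226 and 136 (log2 2.91 ± 0.45, adjusted p = 5.66e-05). creA was at 9.56, 13.0, 6.13 and 8.07 (log2 −0.59 ± 0.51, adjusted p = 0.395), and facB, for the activator of acetate genes, had a log2 of 0.78. An01g04830, a Myb-like protein with a predicted role in conidiation, had 5, 4, 48 and 22 reads (log2 3.72 ± 0.61, adjusted p = 9.89e-05).

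**Figure D5:**
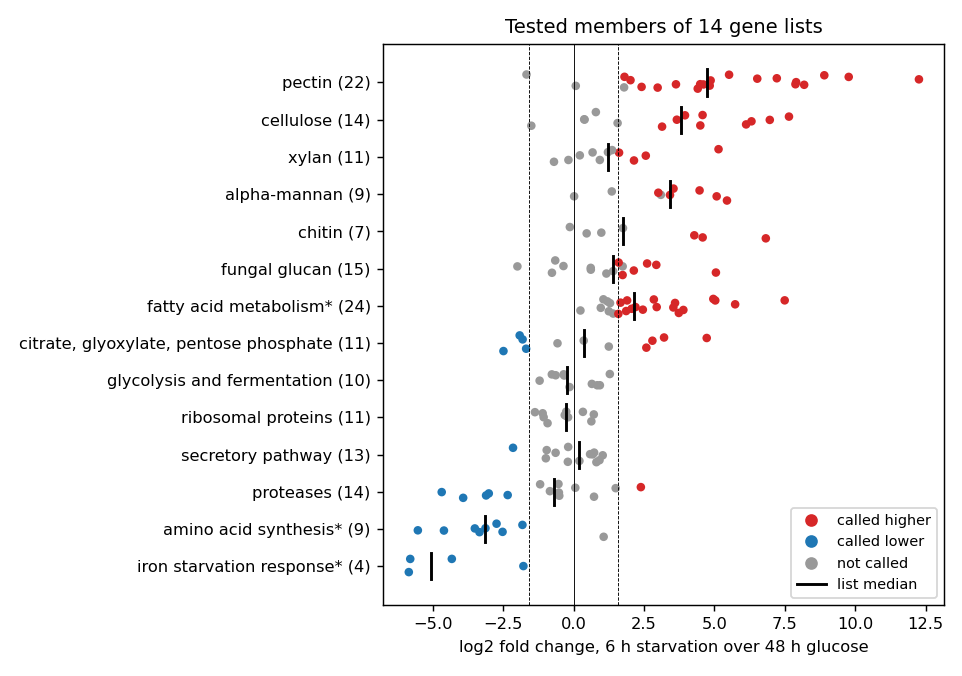
Each point is the log2 fold change of 6 h starvation over 48 h glucose for 1 tested gene of a list, with the number of tested genes in brackets, red for called higher, blue for called lower, grey for not called, a black bar at the list median and dashed lines at 3-fold. Lists marked with an asterisk were drawn by the study from its straw comparison over the same glucose cultures, and the pectin median of 4.72 and the iron median of −5.06 lie at the 2 ends.

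The 6 h pattern was then set against wheat straw for the same 6 h, which tests what straw adds to loss of glucose. Of the tested genes, 7.61% were higher under starvation than on straw and 6.06% lower. Both comparisons with glucose share the glucose cultures, so only the direct difference is tested. The xylanase gene xynA was lower without carbon than on straw by 7.32 on the log2 scale (adjusted p = 1.65e-07, edgeR's quasi-likelihood test), as was eglB by 4.84, and its log2 over glucose was 0.93 in starvation and 8.25 on straw. abfB (log2 7.21 and 7.77) and lacA (6.52 and 7.74) gave differences of −0.55 and −1.22 that were not called (adjusted p = 0.453 and 0.112). abnA was higher in starvation than on straw by 2.75 and An18g05480 by 6.73. cbhB was higher by 2.78 (adjusted p = 0.0126), a call lost without starvation culture A (1.34, adjusted p = 0.176), without straw culture B (1.97, adjusted p = 0.154) and in DESeq2 (adjusted p = 0.121).

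Some nitrogen, sterol and respiratory genes also differed from straw. niaD was lower in starvation than on straw by 4.75 on the log2 scale (adjusted p = 1.26e-06, edgeR's quasi-likelihood test), gdhA by 3.05 (adjusted p = 2.96e-05), aox1 by 4.09 (adjusted p = 2.70e-05) and the sterol reductase An01g07000 by 4.38 (adjusted p = 1.84e-06). Over glucose their straw values were −1.08, −1.55, −0.21 and 0.50, against −5.83, −4.60, −4.30 and −3.88 in starvation. icdA followed, with 0.76 on straw, −1.81 in starvation and a difference of −2.57 (adjusted p = 0.000655). Others were not called, among them the glutamine synthetase An01g08800 (difference −1.13, adjusted p = 0.107), the succinate dehydrogenase gene An01g13930 (−0.25, adjusted p = 0.797) and nuo51, for a subunit of the first respiratory complex (−0.97, adjusted p = 0.246). The run from An11g07310 to An11g07340 was unread or nearly so on straw. The fitted difference of An11g07330 from straw was 12.83, but it had no read on straw, so that size is uncertain. For the isocitrate lyase gene An01g09270 the difference was not called (3.21 and 3.23 over glucose, difference −0.02, adjusted p = 0.988).

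Against 24 h of starvation, 3.74% of tested genes were higher at 6 h and the same share lower, again with shared glucose cultures. The plant polysaccharide genes did not behave as 1 set. cbhB was higher at 6 h than at 24 h by 7.14 (adjusted p = 7.61e-05, edgeR's quasi-likelihood test), with log2 values over glucose of 7.65 and 0.50. abfB was higher at 6 h by 5.62, abnA by 5.09 and lacA by 4.81, whereas for abnC the difference was not called (7.88 and 7.74, difference 0.14, adjusted p = 0.903). The isocitrate lyase gene An01g09270 was higher at 6 h by 2.83 (adjusted p = 0.00261).

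Some genes of autolysis and spore formation were lower at 6 h. chiB was lower at 6 h than at 24 h by 6.40 (adjusted p = 6.05e-07), engA by 4.19 (adjusted p = 1.38e-05) and brnA by 7.98 (adjusted p = 0.0011), all by edgeR's quasi-likelihood test. The size for brnA is uncertain, since it had no read at 6 h of starvation. The differences of the brlA-like An01g10540 (−2.55, adjusted p = 0.0541) and of mcoB (−1.53, adjusted p = 0.0747) were not called. The Myb-like An01g04830 was higher at 6 h by 2.15 (adjusted p = 0.0269), a call lost without starvation culture A of 6 h (1.70, adjusted p = 0.264), without culture A of 24 h (2.09, adjusted p = 0.188), without culture B of 24 h (2.24, adjusted p = 0.096) and in DESeq2 (adjusted p = 0.0953). Without the 6 h culture A, An01g10540 was called lower at 6 h (−4.42, adjusted p = 0.0371). cfcD (4.28 and 4.94 over glucose) and the mannanase An07g07700 (3.55 and 4.31) were called higher at both times, and their differences were not called (adjusted p = 0.389 and 0.275). The starch genes glaA and aglU had log2 values over glucose of −1.23 and −0.68 at 6 h, where neither was called. At 24 h the values were −5.12 and −4.08. Scaled to all reads, both were already called lower at 6 h. Their direct difference between the 2 times is not given here. The pepsin family gene An01g00370 was lower at 6 h than at 24 h by 3.69 (adjusted p = 5.15e-05), with a log2 of 0.58 at 24 h.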

How the data were processed

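RNA was measured in 8 libraries by SOLiD sequencing. The deposited counts are whole reads per gene model, made by the authors with LifeScope mapping and HTSeq counting of uniquely mapped reads on gene models of another A. niger strain, and the deposited RPKM relates them to all reads of the library. RPKM was used only for gene lengths and 1 alternative. The 5 HTSeq summary rows were left out. Whether counting used strand is not given in the sources used here, so overlapping genes are uncertain. Reads on genes ranged from 205778 to 979256 a library, and counting intervals and bounds cover counting error only. Counts were filtered (filterByExpr), scaled by TMM (factors 0.896 to 1.157) and tested in edgeR 4.0.16 (R 4.3.3) by the quasi-likelihood test over all 8 libraries, with Benjamini-Hochberg adjustment over 6357 genes (common dispersion 0.0889, 4 residual degrees of freedom). With 2 cultures a group, an exact permutation test of 1 value could not go below p = 0.333. Calls needed an adjusted p under 0.05 and 3-fold. Scripts were tested on simulated data.

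The members and gene lists were chosen with earlier results of these data known. Lists came from the study's tables, from its description of part of the genome and from RefSeq symbols (assembly ASM285v2, used for names only). Of 15431 gene rows, 14114 had an identifier. Genes could be named if they were among the 12 largest annotated changes in each direction. These needed a mean of at least 50 reads in the higher group and no overlap. Up to 4 called members of each list could also be named. So could any member of the central carbon, regulator, autophagy, conidiation, nitrate and peroxide lists. Not all of these genes are given above. Uncalled members of enzyme lists, genes of the runs with their flanks, An12g07450 and genes that changed in opposite directions over time were named after their values were seen. Alternatives were DESeq2 1.42.0, RLE size factors, all reads of the library, no filter, the 4 libraries alone, adjusted p alone, an RPKM ratio, a replicate block and each library left out. Columns of the authors' own comparisons were not used. The values of 1 gene counted among the lists are not reported here.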

Additional observations from a re-analysis of the deposited data

Results flagged for a closer look

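Over all tested genes, 7 were called in opposite directions against glucose at the 2 starvation times, 6 h and 24 h, with the direct difference between the 2 times called as well by edgeR's quasi-likelihood test, 6 of them higher at 6 h. Those with an annotation are given here, and both times share the glucose cultures. An03g01050, a putative endo-beta-1,6-galactanase gene, was at levels of 171 and 151 on glucose and 443 and 509 at 6 h, with log2 values over glucose of 1.66 at 6 h and −3.69 at 24 h and a difference of 5.34 (adjusted p = 6.32e-06). The acid-CoA ligase gene An01g06840 had 1.67 and −1.73, a difference of 3.40 (adjusted p = 0.000519), and An01g06870, with a pyridoxal phosphate binding domain, had 2.07 and −1.62, a difference of 3.69 (adjusted p = 8.33e-05). On straw for 6 h these 2 genes were at −6.75 and −6.98 over glucose. The polyketide synthase gene An12g02730 went the other way, with −1.81 at 6 h and 2.34 at 24 h, a difference of −4.14 (adjusted p = 2.55e-05), on 29, 41, 7 and 4 reads. Scaled to all reads, the 6 h calls of An03g01050 (log2 0.70, adjusted p = 0.332), An01g06840 (log2 0.70, adjusted p = 0.356) and An01g06870 (log2 1.10, adjusted p = 0.129) were lost, and so they were with the fold taken from mean deposited RPKM. The 6 h call of An01g06840 was also lost without glucose culture A (log2 1.30, adjusted p = 0.168), and that of An12g02730 without glucose culture B (log2 −1.65, adjusted p = 0.0639) and without starvation culture B (log2 −1.60, adjusted p = 0.0721).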

How the results depend on the processing

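The counts of 951 genes higher and 736 lower stayed within 1.5 times of these values under RLE size factors, no low-count filter, the 4 compared libraries alone, DESeq2 (842 and 632) and the adjusted p alone (1177 and 951). Scaled to all reads of the library they were 504 and 1963, and with a 3-fold ratio taken from mean deposited RPKM they were 595 and 951. The share of calls that were higher was 56.4% under the main scaling, and it falls under both of these because starved libraries hold fewer reads on genes. Leaving out 1 library at a time gave 780 to 999 higher and 600 to 784 lower, with the lone culture of the group assumed to vary like the other groups. None of the 151 genes examined for naming reversed its direction while called under any of these alternatives, and all 151 kept their side of the thresholds under the replicate block. Of the differences between 6 h starvation and straw or 24 h starvation given for single genes, tried under fewer alternatives added after the data were seen, those of cbhB, An01g04830 and An01g10540 changed call (given above). Scaled to all reads, lacA (−1.95), An01g08800 (−1.83) and nuo51 (−1.67) were called lower than on straw. An01g10540 was also called lower than at 24 h with RLE size factors, all reads, no filter and the replicate block (−2.63, −3.09, −2.51 and −2.59).

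The labels tie cultures across groups only by the letters A and B. Whether a letter marks a shared starting flask or day is not stated. The deviations of A from B correlated at −0.103 between glucose and 6 h starvation over 3971 genes, and at 0.009 to 0.316 for other pairs of groups other than glucose and 24 h starvation (−0.034). With the letter as a replicate block 944 genes were higher at 6 h starvation than on glucose and 752 lower. With the letters crossed, an alternative added after the data were seen, 951 and 746 were.

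Depth limits low genes: 4212 of 15431 gene rows had no read in the 4 libraries, and a gene with no read is not shown to be silent. The washing, the fresh medium and the loss of carbon were given together, and 2 cultures a group give little power for changes near 3-fold.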
